A study of Mus musculus with 6 samples.

Results

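The genes described here are those of mTORC1, the growth-controlling kinase complex, and of its stress regulators: the complex parts *Mtor* and *Rptor*, the activator *Rheb* with its brakes *Tsc1* and *Tsc2*, and the inducible inhibitors *Sesn1*, *Sesn2*, *Sesn3*, *Ddit4* and *Deptor*. They are a list of named genes, drawn up with earlier results of these data in view, and 10 of 10 were found among the 55367 genes listed for leukemia stem cells (LSCs) of mice with and without *Piezo1*. All 10 also passed the filter on low values (mean deposited log2 value 1 or more), which 16746 genes passed.

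mTORC1 drives protein synthesis and growth when amino acids and growth signals are present, the amino acids acting through the Rag GTPases at the lysosome and the growth signals through the GTPase Rheb. The TSC complex switches Rheb off, and stress lowers the activity of mTORC1 further through proteins such as the sestrins and DDIT4. In the blood system, mTORC1 has to be kept low for stem cells to stay quiescent, while leukemia cells of the myeloid lineage rely on it to grow.

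The comparison is between 3 WT and 3 *Piezo1 cKO* libraries of sorted LSCs and asks which RNAs change in level when PIEZO1, a channel opened by mechanical force, is missing. *Piezo1 cKO* donors carried *Mx1-cre* and *Piezo1 fl/fl*, the WT donors were *Piezo1 fl/fl* littermates without the Cre, and both were given poly(I:C) to switch on the Cre. Lin- bone marrow cells of these donors were transduced with an MLL-AF9 retrovirus that also encodes YFP and transplanted into irradiated recipients, and LSCs were sorted from bone marrow as Lin-Sca-1-c-Kit+CD16/32 hiCD34+YFP+ cells. The mice were 8 to 10 weeks old on a C57BL/6J background, and which round of transplantation gave the LSCs for RNA-seq is not given in the sources used here. *Mx1-cre* is driven by an interferon-responsive promoter that is not restricted to blood cells, and poly(I:C) itself evokes interferon. The labels do not say that the replicates came from separate animals, so the p-values measure only the spread between these libraries, which may be technical.

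The deposited values are on a log2 scale in the form of a regularized log, which pulls each value towards the mean of its gene, so that differences shrink, the more so the fewer the reads. Because this pull could be undone, each gene is also given in recovered reads, normalized to the size factor of each library. Where a gene averaged 1 read or more, the undone values were whole numbers, to within 0.1, in 92.9% of cases. WT replicates 1 to 3 held 15406261, 14745606 and 15483611 recovered reads on genes, and *Piezo1 cKO* replicates 1 to 3 held 14112123, 15094249 and 14456742. The data are RNA levels and hold no measure of the kinase activity of mTORC1. A gene is called higher or lower at an adjusted p under 0.05 (limma, Benjamini-Hochberg over all genes tested), and a DEG also has an absolute log2 fold change over 1.

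*Piezo1* (ENSMUSG00000014444.17, chromosome 8 of GRCm38, 122481698 to 122551329, minus strand) had 101, 92.8 and 109 normalized recovered reads in WT replicates 1 to 3 and 36.6, 56.5 and 45.8 in *Piezo1 cKO* replicates 1 to 3. Every *Piezo1 cKO* library lay below every WT library, and the mean was 45.9% of the WT level (deposited log2 difference -0.29 with a standard error of 0.04 and an adjusted p of 5.8e-06, limma). The counts cover the whole gene, 24.6% of whose exon bases are shared with *Ctu2* on the other strand (373 reads in WT and 197 in *Piezo1 cKO* LSCs), so the counts do not show the deleted exons by themselves.

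The sort markers were present in all 6 libraries: *Kit* at 2489, 2489 and 2590 normalized recovered reads in WT and 3510, 3337 and 3428 in *Piezo1 cKO* LSCs. *Cd34* ran from 3680 to 3790 reads in WT and 5642 to 5966 in *Piezo1 cKO* LSCs, *Fcgr3* from 5183 to 5517 over all libraries, and *Fcgr2b* from 3389 to 3556 in WT and 1580 to 1736 in *Piezo1 cKO* LSCs. *Hoxa9*, which MLL-AF9 keeps active, had 3331, 3399 and 3537 reads in WT and 3202, 3433 and 3672 in *Piezo1 cKO* libraries. *Meis1*, the partner of *Hoxa9*, had 923, 871 and 894 reads in WT and 796, 806 and 730 in *Piezo1 cKO* libraries (log2 fold change -0.21). *Ly6a*, which encodes the gated-out Sca-1, had at most 1.01 reads in WT libraries and 10.4, 16.6 and 7.12 in *Piezo1 cKO* libraries. Some markers of other cells moved with the groups, by calls made on recovered reads, on which 31.4% of all genes tested were lower and 31.6% higher. That share is over genes tested, while the marker lists also hold genes with too few reads to be tested. In the endothelial and stromal list only *Pecam1* and *Cxcl12* were tested, and both were higher. In the macrophage and dendritic cell list *C1qb* and *Itgax* were higher, *Adgre1* and *Csf1r* were not called, and *C1qa* was not tested. Both higher calls rest on few reads. *C1qb* had 0, 2.02 and 0 reads in WT and 6.27, 16.6 and 10.2 in *Piezo1 cKO* libraries. *Itgax* had 0 reads in each WT library and 4.18, 5.85 and 2.035 in *Piezo1 cKO* libraries. Of 7 neutrophil genes, 5 were lower and 1 higher, with sums of 2506, 2480 and 2482 reads in WT and 919, 875 and 901 in *Piezo1 cKO* libraries. *Ngp* was the most abundant of them in WT and *Mmp8*, the higher gene, in *Piezo1 cKO* LSCs, and the defining marker *Ly6g* had at most 1 read in each library. Of 5 mast cell and basophil genes, 4 were higher and none lower, with sums of 2914, 2958 and 3040 reads in WT and 9823, 9761 and 9616 in *Piezo1 cKO* libraries, with *Prss34* the most abundant in WT, *Cpa3* in *Piezo1 cKO* LSCs, and none of the 5 at 0. Of 6 B cell genes, 3 were higher, with sums of 12223, 12584 and 12229 reads in WT and 22740, 22631 and 22355 in *Piezo1 cKO* libraries. *Ighm* was the most abundant, while the B cell marker *Ms4a1* had at most 1.01 reads in each library. The 6 T cell genes, 1 higher and 1 lower, summed to 15.5, 11.1 and 7.70 reads in WT and 17.8, 17.5 and 13.2 in *Piezo1 cKO* libraries, with *Trac* the most abundant over the 6 libraries and *Cd8a* listed at 0. Of the erythroid genes, *Klf1* had 74.7, 79.7 and 83.7 reads in WT and 21.9, 24.4 and 15.3 in *Piezo1 cKO* libraries, and *Gata1* had 61.1, 73.7 and 50.03 reads in WT and 86.7, 68.2 and 68.2 in *Piezo1 cKO* libraries. The 5 macrophage and dendritic cell genes, 2 of them higher, summed to 1976, 2073 and 1904 reads in WT and 1952, 2007 and 1924 in *Piezo1 cKO* libraries, with *Csf1r* the most abundant and *C1qa* listed at 0. The 6 endothelial and stromal genes, 2 of them higher, summed to 2899, 2941 and 2894 reads in WT and 3692, 3438 and 3456 in *Piezo1 cKO* libraries, with *Pecam1* the most abundant and *Col1a2* listed at 0. The part of these markers in the results for the mTORC1 genes was not tested. In such bulk samples, fewer cells of a type and less RNA per cell cannot be told apart.

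The mTORC1 genes split by direction in *Piezo1 cKO* LSCs. *Sesn2* and *Ddit4*, both inhibitors that stress switches on, were lower, as were *Rheb*, its brake *Tsc2* and the kinase gene *Mtor*. *Deptor* and *Sesn3*, inhibitors as well, were higher, and *Sesn1* was higher by a small margin. On the deposited scale 5 of the 10 genes were lower, against 31.4% of all genes tested, and 3 were higher, against 31.6% of all genes tested. With 10 genes, the share that was higher is close to that background. Of all 10556 genes called 50.2% were higher, and 60.5% of 10664 were when the library medians were set equal, and the calls and directions of the 10 mTORC1 genes did not change in that setting.

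On the deposited scale 1 of the 10 genes, *Sesn2*, was a lower DEG, against 0.561% of all genes tested, and none was a higher DEG, against 0.257%. The recovered reads called the same 8 genes, 5 lower and 3 higher, against backgrounds of 31.4% lower and 31.6% higher. On that scale *Sesn2* and *Ddit4* were lower DEGs, against 12.2% of all genes tested, and no member was among the 12.7% that were higher DEGs. In 8 of the 10 genes the 3 *Piezo1 cKO* libraries did not overlap the 3 WT libraries, as in 66.6% of all genes tested. The median log2 fold change of the 10 was -0.05 on the deposited scale and -0.11 on recovered reads, against 0.00 over all genes tested on either scale. *Tsc1* and *Rptor* were the 2 genes that did not pass the test on either scale.

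**Figure D1:**
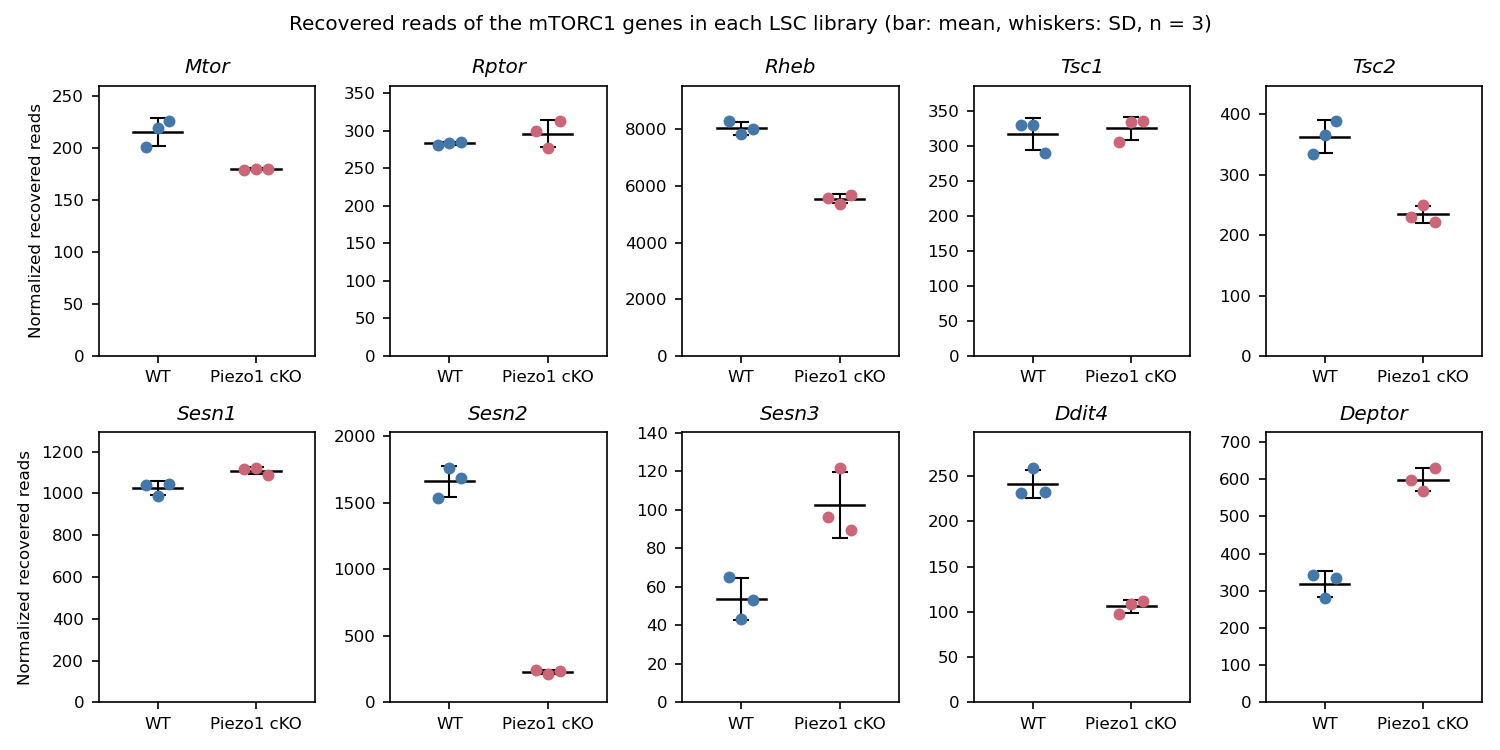
Normalized recovered reads of the 10 mTORC1 genes in each library (linear axes from 0; dots are libraries, bars the mean and whiskers the SD, n = 3 per group). *Sesn2* lies at 1534 to 1764 reads in WT and 214 to 243 in *Piezo1 cKO* LSCs, while the libraries of *Rptor* and *Tsc1* overlap between the groups.

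*Mtor* (ENSMUSG00000028991.15, chromosome 4, 148448611 to 148557683, plus strand) encodes the kinase itself. It had 201, 220.0 and 226 normalized recovered reads in WT replicates 1 to 3 and 179, 180.3 and 180.1 in *Piezo1 cKO* replicates 1 to 3. The 3 *Piezo1 cKO* libraries lay close together just below the lowest WT library. Mean reads of *Mtor* were 216 ± 13.2 (SD, n = 3) in WT and 180 ± 0.920 (SD, n = 3) in *Piezo1 cKO* LSCs, and the log2 fold change on the deposited scale was -0.12 with a standard error of 0.04 (adjusted p = 0.012, limma). This call for *Mtor* was lost without WT replicate 3 (log2 fold change -0.10, adjusted p = 0.0521, limma), also on recovered reads (adjusted p = 0.0633, limma-voom).

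*Rptor* (ENSMUSG00000025583.15, chromosome 11, 119602905 to 119899576, plus strand) encodes Raptor, the scaffold that brings substrates to the kinase. Its normalized recovered reads were 280.4, 284 and 285 in WT and 299, 277 and 312 in *Piezo1 cKO* LSCs. *Piezo1 cKO* replicate 2 lay below all WT libraries and the other *Piezo1 cKO* libraries above them, so the groups overlapped. The log2 fold change of *Rptor* was 0.03 on the deposited scale (95% interval -0.05 to 0.11, adjusted p = 0.461, limma). On recovered reads the interval of the ratio ran from 0.934 to 1.17 times the WT level, so the spread between these libraries allows any change within those bounds. Per kilobase of exon, the ratio of *Mtor* to *Rptor* reads was 1.02 ± 0.0541 (SD, n = 3) in WT and 0.811 ± 0.0514 (SD, n = 3) in *Piezo1 cKO* LSCs.

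*Rheb* (ENSMUSG00000028945.9, chromosome 5, 24802823 to 24842624, minus strand), the GTPase that turns mTORC1 on, had the highest level per length of the 10 genes in either group. It had 8282, 7831 and 7996 normalized recovered reads in WT and 5588, 5368 and 5682 in *Piezo1 cKO* LSCs. The lowest WT library, replicate 2, lay well above the highest *Piezo1 cKO* library, replicate 3. The deposited value went from 12.90 ± 0.03 to 12.51 ± 0.03 (SD, n = 3 each), which is a log2 difference of -0.39 with a standard error of 0.02 (adjusted p = 7.48e-11, limma). The log2 fold change of *Rheb* on recovered reads was -0.54 (95% interval -0.60 to -0.47).

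*Tsc2* (ENSMUSG00000002496.10, chromosome 17, 24595816 to 24632630, minus strand) encodes tuberin, the subunit of the TSC complex that switches Rheb off by speeding its GTP hydrolysis. Its normalized recovered reads were 335, 365 and 389 in WT and 231, 251 and 222 in *Piezo1 cKO* LSCs. Each *Piezo1 cKO* library was below each WT library, with a gap wider than the range within either group. The deposited value went from 8.36 ± 0.06 to 8.04 ± 0.04 (SD, n = 3 each), which is a log2 difference of -0.32 with a standard error of 0.04 (adjusted p = 1.57e-06, limma). *Tsc2* shares 693 exon bases, 7.20% of its exons, with *Pkd1* on the opposite strand. Whether the counting used strand is not given in the sources used here, so reads in that stretch cannot be told apart, and *Pkd1* itself had 314 reads in WT and 348 in *Piezo1 cKO* LSCs.

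*Tsc1* (ENSMUSG00000026812.16, chromosome 2, 28641228 to 28691167, plus strand) encodes hamartin, which stabilizes tuberin. It had 329, 330.0 and 289.6 normalized recovered reads in WT and 305, 333 and 335 in *Piezo1 cKO* LSCs. The groups overlapped, with WT replicate 3 the lowest library. The log2 fold change of *Tsc1* was 0.02 on the deposited scale (95% interval -0.06 to 0.10, adjusted p = 0.677, limma), and without WT replicate 3 its sign turned, to -0.01 (adjusted p = 0.812, limma). Per kilobase of exon, the ratio of *Tsc2* to *Tsc1* reads was 1.25, 1.36 and 1.65 in WT and 0.931, 0.924 and 0.815 in *Piezo1 cKO* LSCs. *Tsc2* reads per length were above those of *Tsc1* in every WT library and below them in every *Piezo1 cKO* library.

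The sestrins pass on stress and amino acid shortage to mTORC1 by binding GATOR2, a complex that otherwise keeps the Rag branch active, and Sestrin 2 also binds leucine. *Sesn2* (ENSMUSG00000028893.8, chromosome 4, 132492032 to 132510501, minus strand) had 1534, 1764 and 1686 normalized recovered reads in WT and 243, 214 and 233 in *Piezo1 cKO* LSCs. The highest *Piezo1 cKO* library was far below the lowest WT library. The deposited value of *Sesn2* was 10.29 ± 0.07 (SD, n = 3) in WT and 8.49 ± 0.05 (SD, n = 3) without *Piezo1*, which is a log2 difference of -1.80 with a standard error of 0.04 (adjusted p = 2.32e-17, limma). Its mean reads were 7.21-fold lower, and the log2 fold change on recovered reads was -2.85 (95% interval -3.03 to -2.67, adjusted p = 3.09e-13, limma-voom). Leaving out each library in turn kept this last value between -2.91 and -2.80.

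*Sesn1* (ENSMUSG00000038332.13, chromosome 10, 41809935 to 41908424, plus strand), the sestrin known as a p53 target, differed far less. It had 1042, 988 and 1046 normalized recovered reads in WT and 1117, 1123 and 1089 in *Piezo1 cKO* LSCs. All 3 *Piezo1 cKO* libraries were above the WT libraries by a narrow margin. The log2 fold change of *Sesn1* was 0.08 on the deposited scale with a standard error of 0.03 (adjusted p = 0.042, limma). With a library left out, *Sesn1* was called in 1 of 6 fits, that without WT replicate 1, and lost the call in the other 5 (adjusted p up to 0.133, limma), or in 3 of 6 fits on recovered reads (adjusted p up to 0.119, limma-voom), and it was lost without the filter on low values (adjusted p = 0.0576, limma).

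*Sesn3* (ENSMUSG00000032009.8, chromosome 9, 14275067 to 14333101, plus strand), the sestrin driven by FOXO factors, moved the opposite way to *Sesn2*. Its mean reads were the lowest of the 10 genes in either group, with 65.0, 43.4 and 52.9 normalized recovered reads in the WT libraries and 96.1, 122 and 89.5 in *Piezo1 cKO* LSCs. The groups did not overlap, although the spread within each was wide for so low a count. The deposited value of *Sesn3* went from 6.13 ± 0.06 to 6.38 ± 0.08 (SD, n = 3 each), which is a log2 difference of 0.25 with a standard error of 0.04 (adjusted p = 9.03e-05, limma). On recovered reads the log2 fold change was 0.93 (95% interval 0.55 to 1.32), and it exceeded 1 without WT replicate 1 (1.08) and without *Piezo1 cKO* replicate 3 (1.02).

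Together the sestrins had fewer reads and another make-up in *Piezo1 cKO* LSCs. RPKM, the recovered reads scaled to exon length and library total and summed over the sestrin genes, were 47.3, 51.0 and 50.4 in WT and 24.2, 23.9 and 23.5 in *Piezo1 cKO* LSCs. *Sesn2* made up 64.6% ± 2.26 (SD, n = 3) of that sum in WT and 18.9% ± 1.13 (SD, n = 3) in *Piezo1 cKO* LSCs. *Sesn1* went from 34.9% ± 2.14 to 79.2% ± 0.831 of the sum (SD, n = 3 each), so that the leading sestrin RNA was *Sesn2* in every WT library and *Sesn1* in every *Piezo1 cKO* library. *Sesn3* stayed a small part in either group, 0.479% ± 0.115 in WT and 1.91% ± 0.314 in *Piezo1 cKO* LSCs (SD, n = 3 each).

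*Ddit4* (ENSMUSG00000020108.4, chromosome 10, 59949669 to 59951834, minus strand) encodes REDD1, which is induced by hypoxia and other stress and lowers mTORC1 activity through the TSC complex. It had 232, 259 and 233 normalized recovered reads in WT and 98.2, 109 and 112 in *Piezo1 cKO* LSCs. Every *Piezo1 cKO* library was under the lowest WT library by more than the spread within the groups. The deposited value went from 7.61 ± 0.04 to 7.13 ± 0.03 (SD, n = 3 each), which is a log2 difference of -0.49 with a standard error of 0.04 (adjusted p = 4.66e-09, limma). *Ddit4* passed the fold threshold of a DEG on recovered reads, with a log2 fold change of -1.17 (95% interval -1.40 to -0.95, adjusted p = 2.04e-07, limma-voom), though the interval reaches above -1. Its paralog *Ddit4l* was listed at 0 in all 6 libraries.

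*Deptor* (ENSMUSG00000022419.16, chromosome 15, 55112317 to 55259271, plus strand) encodes a protein that binds mTOR and inhibits the kinase directly. It had 343, 279.5 and 334 normalized recovered reads in WT and 598, 568 and 631 in *Piezo1 cKO* LSCs. Here every *Piezo1 cKO* library was above every WT library. The deposited value went from 8.52 ± 0.08 to 9.05 ± 0.05 (SD, n = 3 each), which is a log2 difference of 0.52 with a standard error of 0.04 (adjusted p = 5.39e-09, limma), and that on recovered reads was 0.91 (95% interval 0.74 to 1.08). *Deptor* shares 3.41% of its exon bases with *Gm9920* on the other strand, which had 7.16 reads in WT and 17.4 in *Piezo1 cKO* LSCs, and *Rptor* shares 0.624% with its antisense gene *Rptoros*.

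**Figure D2:**
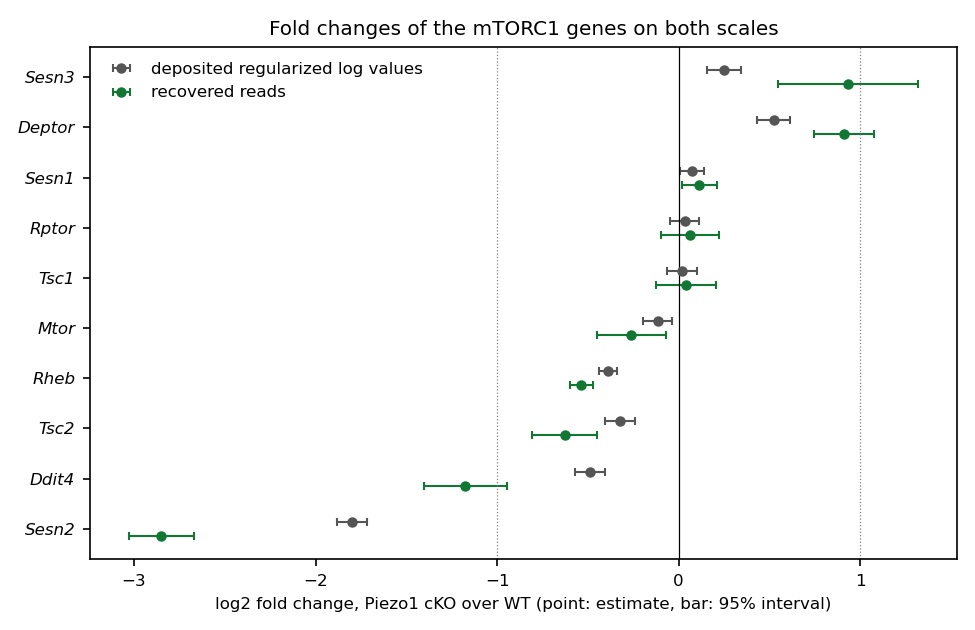
Log2 fold changes of the 10 mTORC1 genes in *Piezo1 cKO* over WT LSCs (horizontal axis), from the deposited regularized log values and from recovered reads (points are estimates and bars 95% intervals, dotted lines mark -1 and 1). The recovered reads give the larger change in each gene, from -2.85 in *Sesn2* to 0.93 in *Sesn3*.

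Levels between genes were compared as RPKM, over all annotated exons of each gene. In WT LSCs the order was *Rheb* (69.8), *Sesn2* (32.1), *Sesn1* (17.3), *Ddit4* (9.23), *Tsc2* (2.53), *Deptor* (2.41), *Tsc1* (1.79), *Mtor* (1.43), *Rptor* (1.41) and *Sesn3* (0.236). The libraries of neighbours in that order overlapped for *Tsc2* with *Deptor* and for *Mtor* with *Rptor*, which are therefore not ranked. In *Piezo1 cKO* LSCs the order was *Rheb* (48.8), *Sesn1* (18.9), *Deptor* (4.58), *Sesn2* (4.50), *Ddit4* (4.12), *Tsc1* (1.86), *Tsc2* (1.66), *Rptor* (1.49), *Mtor* (1.21) and *Sesn3* (0.456). There *Deptor*, *Sesn2* and *Ddit4* overlapped with their neighbours, as did *Tsc1*, *Tsc2* and *Rptor*. *Sesn2* went from well above *Deptor* in WT to the same level in *Piezo1 cKO* LSCs. *Rheb* reads per length exceeded those of *Mtor* by a ratio of 49.0 ± 4.35 in WT and 40.4 ± 1.26 in *Piezo1 cKO* LSCs (SD, n = 3 each).

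Summed over the 5 inducible inhibitors, RPKM was 58.7, 63.0 and 61.9 in WT and 32.6, 32.5 and 32.7 in *Piezo1 cKO* LSCs. *Sesn2* gave 52.4% ± 1.94 of this sum in WT and 13.8% ± 0.846 in *Piezo1 cKO* LSCs (SD, n = 3 each). *Deptor* went from 3.95% ± 0.532 to 14.1% ± 0.688, while *Ddit4*, falling with the sum, was 15.1% ± 0.680 and 12.6% ± 0.862 (SD, n = 3 each).

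**Figure D3:**
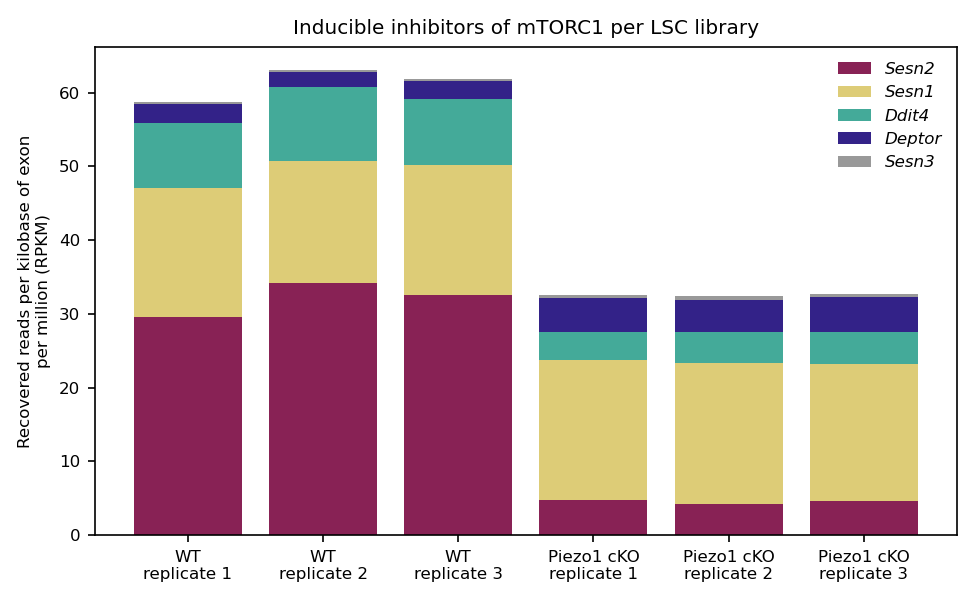
Stacked RPKM of the 5 inducible mTORC1 inhibitors in each library, from an axis starting at 0. The sum is 58.7 to 63.0 in WT and 32.5 to 32.7 in *Piezo1 cKO* libraries, with the *Sesn2* segment at 32.1 on average in WT and 4.50 in *Piezo1 cKO* LSCs.

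Around the 10 genes, 66 of 71 other pathway genes were tested on the deposited scale, of which 34 were lower, 16 higher and 16 not called, with a median log2 fold change of -0.08, against 31.4% lower, 31.6% higher and a median of 0.00 over all genes tested. Of the other mTORC1 subunits, *Mlst8*, which stabilizes the kinase, had 525, 507 and 512 normalized recovered reads in WT and 241, 286 and 242 in *Piezo1 cKO* LSCs. It fell by 0.55 on the deposited log2 scale (adjusted p = 8.54e-10, limma) and by 1.01 on recovered reads, while *Mtor* fell by 0.12 on the deposited scale and *Rptor* was not called. *Mlst8* shares 22.5% of its exon bases with *Bricd5* on the opposite strand, which was listed at 0 in all 6 libraries. *Akt1s1*, which encodes the inhibitory subunit PRAS40, had a log2 difference of 0.15 (adjusted p = 0.0124, limma) with groups that overlapped, and shares 2.90% of its exon bases with *Tbc1d17* on the other strand. The *Akt1s1* call was lost in 3 of 6 fits with a library left out (without WT replicate 1, *Piezo1 cKO* replicate 2 or *Piezo1 cKO* replicate 3), with adjusted p up to 0.123 (limma). It was also lost in 4 of 6 such fits on recovered reads, and with all libraries when the variance trend was dropped (adjusted p = 0.0701, limma).

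Of the mTORC2 subunits, *Prr5* was higher (log2 fold change 0.18, adjusted p = 0.000551, limma), *Rictor* (-0.07, adjusted p = 0.23) and *Mapkap1* (-0.05, adjusted p = 0.13) did not pass the test, and *Prr5l* had too few reads to be tested on the deposited scale. Beside *Tsc1*, *Tsc2* and *Rheb*, the third TSC subunit *Tbc1d7* had a log2 difference of 0.13 (adjusted p = 0.0117, limma), a call lost without WT replicate 2 (adjusted p = 0.0596) or *Piezo1 cKO* replicate 2 (adjusted p = 0.0823). On recovered reads the *Tbc1d7* call was lost without WT replicate 2, WT replicate 3 or *Piezo1 cKO* replicate 2 (adjusted p 0.0685, 0.058 and 0.0999, limma-voom). The *Rheb* relative *Rhebl1*, which shares 18% of its exon bases with *Dhh*, fell by 0.24 (adjusted p = 2.68e-05, limma). The Rag and Ragulator genes, the lysosomal anchor of mTORC1, split into 3 lower and 4 higher of 10, with a median of 0.02, close to the 31.4% lower and 31.6% higher of all genes tested. *Rragc* fell by 0.34, *Lamtor3* had -0.18 and *Lamtor4* rose by 0.29. The sestrins act through GATOR2, whose *Seh1l* fell by 0.42 and whose *Wdr24* rose by 0.39, and in all 2 of 11 GATOR and KICSTOR genes tested were lower and 2 higher, both under those shares of all genes. Of 6 other amino acid sensors and folliculin genes, to be read against the same shares, 3 were lower (*Fnip2* -0.27, *Castor2* -0.20, *Fnip1* -0.20) and 2 higher (*Flcn* 0.20 and *Castor1* 0.13), the last 2 named after their values were seen. *Castor1*, with 9.70, 11.1 and 13.5 normalized recovered reads in WT and 27.2, 31.2 and 32.6 in *Piezo1 cKO* LSCs, was the DEG of that list on recovered reads (log2 fold change 1.38, adjusted p = 0.000526, limma-voom). Of the kinases upstream, *Akt2* had a log2 fold change of -0.46, *Prkaa1* of -0.32 and *Pdpk1* of -0.23 on the deposited scale, all called lower.

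Of 12 targets and outputs of mTORC1 tested, 8 were lower and 2 higher, with a median log2 fold change of -0.13, against 31.4% lower and 31.6% higher of all genes tested. *Eif4ebp1*, the repressor of translation that mTORC1 inactivates, fell by 0.79 on the deposited log2 scale (adjusted p = 2.57e-15, limma), to 46.7% of its WT reads. *Pdcd4*, another translation repressor, rose by 0.81 (adjusted p = 1.19e-16, limma), to 213% of its WT reads, and *Tfeb*, which drives lysosomal genes, fell by 0.47 (adjusted p = 8.23e-08, limma).

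Of 9 genes for known inducers of *Sesn2*, *Ddit4* and the other inhibitors, 8 were lower and 1, *Foxo3*, was higher, with a median log2 fold change of -0.31, against 31.4% lower and 31.6% higher of all genes tested. This list, like the other pathway lists, was drawn up with earlier results in view. Whether a change in an inducer had a part in that of an inhibitor was not tested. *Cebpb*, which encodes a basic leucine zipper factor, had 947, 941 and 961 normalized recovered reads in WT and 32.4, 35.1 and 35.6 in *Piezo1 cKO* LSCs (log2 fold change on the deposited scale -2.37, adjusted p = 8e-20, limma), with 20.7% of its exon bases shared with *Tmem189* on the other strand. *Ddit3*, the stress factor CHOP, whose symbol is on 2 gene IDs of the annotation, fell to 27.4% of its WT reads (log2 fold change -0.77, adjusted p = 5.68e-12, limma). *Hif1a*, the hypoxia factor known to induce *Ddit4*, had 892, 842 and 899 normalized recovered reads in WT and 356, 367 and 344 in *Piezo1 cKO* LSCs (log2 fold change -0.79, adjusted p = 6.11e-13, limma). *Atf4*, a known inducer of *Sesn2*, was at 62.4% of its WT reads. Of the FOXO factors that drive *Sesn3*, *Foxo3* was at 145% and *Foxo1* at 53.1% of the WT reads. The log2 fold change of *Foxo1* was -0.12 on the deposited scale and -1.03 on recovered reads. *Foxo1* had 35.9, 38.3 and 44.3 normalized recovered reads in WT and 9.40, 31.2 and 22.4 in *Piezo1 cKO* LSCs. Its low mean in *Piezo1 cKO* LSCs thus leans on replicate 1. *Trp53*, which encodes p53, was at 73.1% of its WT reads (log2 fold change -0.31, adjusted p = 1.12e-07, limma). Its target *Sesn1* went the other way, by a small margin. *Atf4*, *Trp53*, *Foxo3* and *Foxo1* are named here after their values were seen. All 4 amino acid transporters that feed mTORC1 were lower, with a median of -0.87, against 31.4% lower and a median of 0.00 over all genes tested. *Slc7a5* fell by 1.13, *Slc3a2* by 1.12, *Slc1a5* by 0.62 and *Slc38a2* by 0.27 on the deposited log2 scale. *Slc7a11*, the cystine transporter that pairs with the product of *Slc3a2*, fell to 4.11% of its WT reads, from 839, 788 and 817 to 30.3, 22.4 and 47.8.

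The genes whose pattern over the 6 libraries was most like that of a member were sought among 10236 genes by the root mean square difference of centred deposited values. For *Sesn2* these were *Lmna* (0.043), *Ngp* (0.066; also among the neutrophil markers) and *Gm37024* (0.080), the last with no read in *Piezo1 cKO* LSCs and at least 119-fold lower against a floor of 3 reads per library. For *Ddit4* they were *Akt2* (0.017), *Sbno2* (0.018) and *Zdhhc21* (0.020). For *Deptor* they included *Ccl9* (0.029) and *D130040H23Rik* (0.029).

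The 10 genes lie on 8 chromosomes. *Mtor* and *Sesn2* share chromosome 4 at a distance of 15.9 megabases, and *Sesn1* and *Ddit4* share chromosome 10 at a distance of 18 megabases, so neither pair is adjacent. Promoter windows of 300 bases (RefSeq, GRCm38.p6) were matched for 9 of the 10 genes, 10 windows in all since *Sesn1* has 2, and *Deptor* was not matched. They were searched on both strands for TGATGNAA, the core of the C/EBP-ATF response element, for ACGTG and GCGTG, cores of the hypoxia response element, for GTAAACA, a forkhead core, and for TCACGTGA, the CLEAR core, which contains ACGTG. TGATGNAA was in none of the 10 windows, against 3.97% of all 32851 promoters, and TCACGTGA in none, against 0.974%. ACGTG was in the windows of 3 genes (*Ddit4*, *Rheb* and *Rptor*; 19.6% of all promoters) and GCGTG in those of 5 (*Ddit4*, *Rptor*, *Sesn1*, *Tsc1* and *Tsc2*; 32.4%). GTAAACA was in 1 of the windows of *Sesn1*, against 3.65% of all promoters. A match describes letters only, and its absence says nothing about a factor.

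The stretches upstream of the annotated gene start are shown for *Sesn2* (chr4:132510502-132510706, minus strand, 205 bases) and *Ddit4* (chr10:59951835-59952020, minus strand, 186 bases), the inhibitors that fell most, with matches to ACGTG or GCGTG in capitals. In *Ddit4* these start 123 and 51 bases before the gene start, and *Sesn2* has none.
Sesn2: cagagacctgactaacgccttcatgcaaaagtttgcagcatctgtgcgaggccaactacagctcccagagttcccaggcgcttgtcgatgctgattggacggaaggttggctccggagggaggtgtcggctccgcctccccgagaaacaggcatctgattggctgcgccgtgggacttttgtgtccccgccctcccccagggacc
Ddit4: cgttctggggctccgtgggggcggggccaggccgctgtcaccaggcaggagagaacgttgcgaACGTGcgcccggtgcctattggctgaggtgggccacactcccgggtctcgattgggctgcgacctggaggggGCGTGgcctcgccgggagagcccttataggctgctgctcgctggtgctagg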

How the data were processed

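RNA-seq of sorted LSCs was processed by the authors, per the labels, with fastp 0.20.1, HISAT2 2.2.1 on GRCm38, featureCounts 2.0.1 and DESeq2 1.28.1. The deposited values of 6 libraries are log2 values, of the form of the regularized log of DESeq2, which the authors used. They were undone here to whole reads and size factors. As a check, with the pull set 10% off, 22.2% of values were whole, against 92.9% with the fitted pull (genes averaging at least 1 read). The 10 genes and the pathway lists were chosen with earlier results of these data known. *Piezo1 cKO* minus WT was fitted as planned with limma 3.58.1 (R 4.3.3; lmFit, eBayes with trend, two-sided, Benjamini-Hochberg) on deposited values of genes with a mean of at least 1. An exact permutation test of 3 against 3 libraries cannot go below p = 0.1. Recovered reads (at least 10 in total) were fitted with limma-voom. Other alternatives were no filter, a mean of at least 50 recovered reads, equal library medians, library totals, no variance trend, the replicate number as a block, and each library left out.

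Genes named were the 10, *Piezo1*, *Slc7a11* and every gene of lists of up to 4. From longer lists, at most 3 called genes with groups not overlapping were named, by absolute log2 fold change. Up to 3 genes of like pattern (mean of at least 50 recovered reads) were named for each of the 3 of the 10 that changed most on the deposited scale. Genes outside this rule are given as named after their values were seen. *Kics2* was not matched. Positions and exon lengths are from GENCODE M21, promoters from RefSeq. Tables used Python 3.11.15, numpy 2.4.6, scipy 1.17.1 and pandas 2.3.3, and plots matplotlib 3.10.9. The 95% intervals come from the fits and rest on the spread between libraries. Reads carry no molecular identifiers, so the floor of 3 reads covers counting error only.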

Additional observations from a re-analysis of the deposited data

How the results depend on the processing

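Of 200 comparisons of the 10 mTORC1 genes under alternatives, 187 kept direction and side of the threshold, 11 lost the call (*Sesn1* and *Mtor*) and 2 changed sign. Those 2 are *Tsc1*, not called in any setting, without WT replicate 3: log2 fold change -0.012 on deposited values (up to 0.043 when other libraries were left out) and -0.022 on recovered reads, where the adjusted p was 0.812 and 0.82 (limma), and the cause was not tested. Of 760 comparisons of other genes, 13 lost the call, all for *Akt1s1* or *Tbc1d7*. Genes called numbered 9596 to 10121 on deposited values and 9893 to 10410 on recovered reads when each library was left out, and DEGs 134 to 144 on deposited values. On recovered reads the DEGs were 4127, 4147 and 4061 without WT replicates 1, 2 and 3, and 4105, 4139 and 4140 without *Piezo1 cKO* replicates 1, 2 and 3. Of the 10 genes, 6 to 8 were called (7 to 8 on recovered reads), and 1 was a DEG in each such fit on deposited values, against 2 to 3 on recovered reads. The recovered reads, whose fit and filter differ as well as the scale, changed the DEGs from 137 of all genes and 1 of the 10 to 4322 and 2 on recovered reads, and to 4333 and 2 with library totals. Other filters on the deposited values gave 136 and 137 DEGs, and the parts of scale and fit were not tested apart.

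With the replicate number as a block, 11055 genes were called and 137 were DEGs on deposited values, and 4364 genes, 2 of the 10 among them, were DEGs on recovered reads. The labels do not say that equal numbers share an animal, so the numbers were not taken to pair the libraries. Deviations from the group mean correlated at 0.20, 0.16 and 0.07 between libraries of the same number and at -0.17 to 0.03 between others. Every library thus correlated best with its own number. For *Piezo1 cKO* replicate 3 the margin was narrow, 0.07 with WT replicate 3 against 0.03 with WT replicate 2. The deviations within a group sum to 0 for each gene, so these correlations depend on one another. Whether the libraries are paired cannot be told from them. Of the 10 genes, depth limits *Sesn3* most, whose mean reads were the lowest in either group.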
